A study of Mus musculus with 8 samples.

Results

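The 30 genes described here encode enzymes and regulators of sterol and fatty acid synthesis. They were taken by symbol from a set list, and all 30 were found among the 55367 gene symbols of the hippocampal count tables. The list was divided by role into 7 genes of the mevalonate steps, 11 genes of the steps from squalene to cholesterol, 4 genes that control sterol synthesis or move sterol, and 8 genes that make, desaturate or elongate fatty acids. The study asked how the hippocampus changes when regulatory T cells (Treg cells, which express Foxp3) are removed. One group carried the diphtheria toxin receptor under Foxp3 (genotype Foxp3-DTR+, here DTRpos) and the other were littermates without it (Foxp3-DTR-, here DTRneg). Mice of both genotypes received diphtheria toxin, which kills cells that carry the receptor. Live hippocampal cells without CD45 and Thy1 on their surface were sorted, 2 mice were pooled for each genotype, and 1 droplet-based single-cell RNA library was made from each pool. Dose, timing, age and sex are not given in the sources used here. The depleted cells carry CD45 and lay outside the sort, so these libraries give no check of the depletion itself.

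The libraries held 53484704 and 35814655 UMIs (unique molecular identifiers, each tagging 1 captured RNA molecule) for DTRneg and DTRpos. After filtering and removal of called doublets, 6863 DTRneg and 5691 DTRpos cells remained, with median depths of 6003 and 4509 UMIs per cell. The libraries shared 18 cell barcodes. Cells were placed in 6 classes by the marker gene with the most UMIs, given at least 2 UMIs and no tie. The Pdgfra class (oligodendrocyte progenitor-like) held 700 DTRneg and 835 DTRpos cells, the Enpp6 class (differentiating oligodendrocyte-like) 73 and 28, and the Mog class (mature oligodendrocyte-like) 3696 and 2573. The Aqp4 class (astrocyte-like) held 651 and 684 cells, the Cldn5 class (endothelial-like) 489 and 358, and the Igfbpl1 class (neuroblast-like) 187 and 142. In every class except Mog, 5 of 5 further markers of its cell type were detected in at least 10% of its cells and stood at 1.5 times or more their mean CPM over the other 5 classes (CPM are UMIs of a gene scaled to an equal total in every sum). In the Mog class this held for 4 of 5, with Klk6 detected in 8.44% and 8.32% of cells. Each of these markers was highest in its own class except Tnr, a progenitor marker, which stood at 830 and 931 CPM in the Pdgfra class and at 1011 and 1036 in the Enpp6 class. Cells without a class numbered 1067 and 1071, and a top marker at exactly 1 UMI, just under the threshold, was most frequent for Aqp4 (172 and 223 cells). The labels call the cells neurons and glia, but the summed level of 4 neuronal markers was at most 257 CPM in any class.

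Cholesterol is built from acetyl-CoA through mevalonate and squalene, and fatty acids are built from the same acetyl-CoA by carboxylation, chain synthesis, desaturation and elongation. The SREBP transcription factors, encoded by Srebf1 and Srebf2, are held in the endoplasmic reticulum by the Insig proteins when sterol is plentiful and activate genes of both pathways when it is scarce. Because plasma cholesterol does not cross the blood-brain barrier, brain cells make their own: oligodendrocytes use it for myelin, a membrane rich in cholesterol and long-chain lipids, and astrocytes supply it to neurons on apolipoprotein E.

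The upstream sequences of 5 of the genes with the largest class differences are shown because SREBP and its partner factors are known to act there. Each line gives the 250 bases before the RefSeq start of the gene (build GRCm38.p6), 5′ to 3′ on the gene's strand: Hmgcs1 at chr13:119690101-119690350 on the plus strand, Mvd at chr8:122443423-122443672 on the minus strand, Idi1 at chr13:8885356-8885605 on the plus strand, Hsd17b7 at chr1:169969206-169969455 on the minus strand and Msmo1 at chr8:64733579-64733828 on the minus strand. Capitals mark matches, on either strand, to 4 motifs of which none contains another: the sterol response element TCACNCCAC, the E-box CACGTG, the NF-Y box CCAAT and the Sp1 box GGGCGG.
Hmgcs1: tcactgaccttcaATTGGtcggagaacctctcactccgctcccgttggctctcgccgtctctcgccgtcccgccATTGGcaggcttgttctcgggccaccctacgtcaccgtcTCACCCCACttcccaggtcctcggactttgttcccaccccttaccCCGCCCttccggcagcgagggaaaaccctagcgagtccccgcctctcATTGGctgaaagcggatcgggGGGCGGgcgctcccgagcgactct
Mvd: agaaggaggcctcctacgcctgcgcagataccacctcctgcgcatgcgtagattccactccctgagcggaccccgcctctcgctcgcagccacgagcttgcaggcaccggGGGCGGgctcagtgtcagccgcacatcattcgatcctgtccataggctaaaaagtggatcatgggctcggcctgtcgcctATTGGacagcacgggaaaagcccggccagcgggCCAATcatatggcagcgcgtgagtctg
Idi1: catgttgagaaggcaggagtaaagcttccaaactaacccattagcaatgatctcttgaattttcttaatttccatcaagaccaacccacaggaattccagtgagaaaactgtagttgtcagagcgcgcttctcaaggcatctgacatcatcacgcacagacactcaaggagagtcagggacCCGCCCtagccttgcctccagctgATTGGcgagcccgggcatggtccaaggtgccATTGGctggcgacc
Hsd17b7: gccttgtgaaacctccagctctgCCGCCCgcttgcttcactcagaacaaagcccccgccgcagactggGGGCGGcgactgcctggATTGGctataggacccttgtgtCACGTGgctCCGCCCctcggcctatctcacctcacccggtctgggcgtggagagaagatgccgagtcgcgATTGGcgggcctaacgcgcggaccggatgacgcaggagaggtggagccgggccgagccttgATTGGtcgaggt
Msmo1: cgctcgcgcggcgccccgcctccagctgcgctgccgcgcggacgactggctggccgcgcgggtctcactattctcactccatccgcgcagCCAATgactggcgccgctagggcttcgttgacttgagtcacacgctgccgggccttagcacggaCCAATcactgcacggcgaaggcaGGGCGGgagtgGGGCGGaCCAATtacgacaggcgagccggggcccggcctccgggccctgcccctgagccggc

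Of the 30 genes, 24 had an upstream sequence in the RefSeq table, with 30 start sites between them. The CCAAT box was present in 21 of these 30 sequences (70%), against 33.8% of all 32851 upstream sequences of the same length. The GGGCGG box was present in 22 of 30 (73.3%), against 32.7% of all. CACGTG was present in 5 of 30 (16.7%) against 6.02% of all, and TCACNCCAC in 1 of 30, that of Hmgcs1, against 1.05% of all. Counted by gene, CCAAT was found in 20 of 24 and GGGCGG in 19 of 24. The shares given for all sequences are per start site and cannot be set beside these counts, since a gene with several starts has more chances of a match. The set of all upstream sequences was not matched to the list for expression or base composition. The motif counts are letter matches in a fixed window and not measured binding.

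The 30 genes together were most abundant in oligodendrocyte-like and astrocyte-like cells and least in endothelial-like cells. In DTRneg and DTRpos, their summed UMIs were 5134 and 5374 CPM in the Mog class, 4998 and 5495 in the Aqp4 class and 4612 and 5220 in the Enpp6 class. They were 1809 and 1868 CPM in the Pdgfra class, 1858 and 2048 in the Igfbpl1 class and 922 and 922 in the Cldn5 class. The first 3 classes did not overlap the last 3 in either library. Scd2, a desaturase that places a double bond in newly made fatty acids, carried 47.8% and 49% of the list's UMIs in the Mog class. In the Aqp4 class, Msmo1, a sterol methyl oxidase, carried 24% and 23.8%.

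On CPM scaled by TMM factors (which equalise the bulk of genes between sums), 12 genes were highest in the Aqp4 class in both libraries: Mvk, Idi1, Fdft1, Sqle, Tm7sf2, Msmo1, Nsdhl, Sc5d, Dhcr7, Srebf1, Insig1 and Elovl5. Another 9 were highest in the Mog class: Ebp, Srebf2, Acly, Acaca, Fasn, Scd1, Scd2, Elovl1 and Elovl6. Acat2 and Hmgcs1, the first steps toward mevalonate, were highest in the Enpp6 class, and Stard4 in the Cldn5 class. For the other 6 (Pmvk, Mvd, Fdps, Lss, Cyp51 and Hsd17b7) the top class differed between the libraries. On unscaled CPM as well, 10 genes stayed with the Aqp4 class, 5 with the Mog class, 2 with the Enpp6 class and 1 with the Cldn5 class. On that scale Mvk and the 6 genes whose top class had differed were highest in the Enpp6 class in both libraries. For Idi1, Srebf2, Acly, Fasn and Elovl6 the unscaled top class differed between the libraries. The Cldn5 class was the lowest for 18 genes in both libraries. In the comparisons of classes below, levels of single genes are TMM-scaled CPM, while sums over marker lists and all values for subsets of a class are unscaled CPM.

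**Figure D1:**
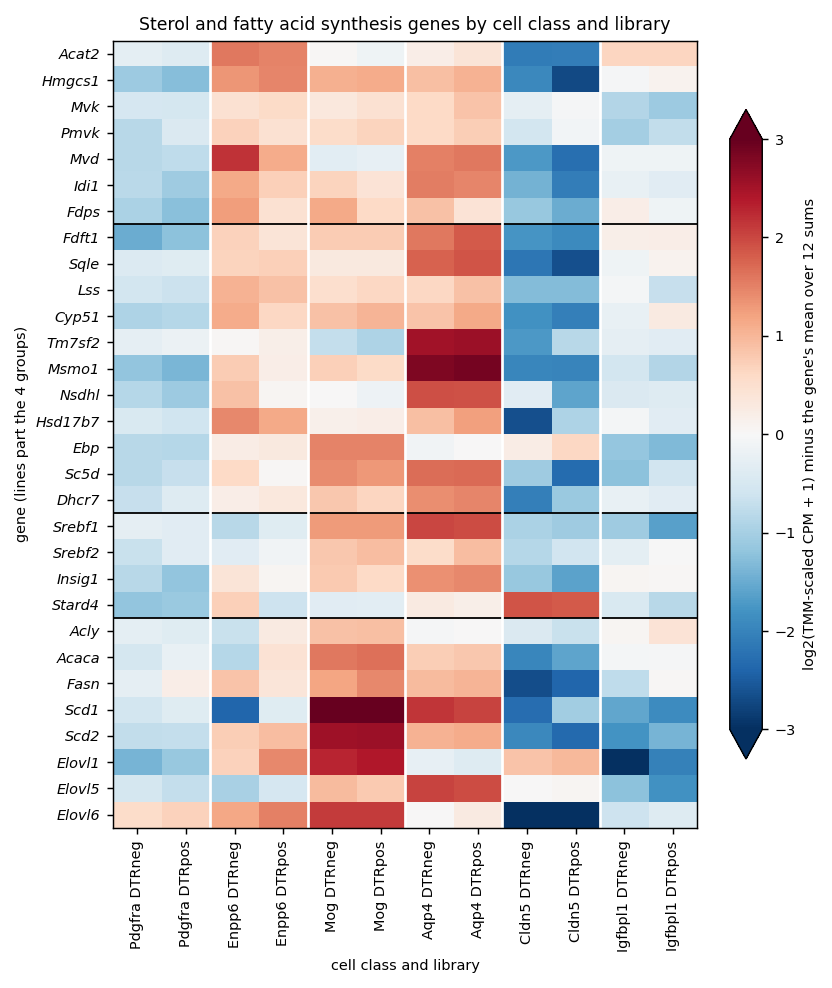
Level of each of the 30 genes (rows, parted into the 4 role groups) in the 12 class and library sums (columns), as log2 of TMM-scaled CPM plus 1, minus the gene's mean over the sums. Red is above and blue below that mean, with colours ending at 3 on either side; 12 genes are highest in the Aqp4 class, 9 in the Mog class, and the Cldn5 class is lowest for 18.

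Between oligodendrocyte progenitor-like and differentiating oligodendrocyte-like cells, most of the list was higher in the latter. All 30 genes passed the filter on low counts, and 23 were higher in the Enpp6 class than in the Pdgfra class, 0 were lower and 7 were not called (edgeR quasi-likelihood test, adjusted p under 0.05). Of all 13738 genes tested, 12% were called higher and 28.1% in either direction. The median log2 difference of the list was 1.30, beside a median of -0.32 over all genes tested. Each class has 1 sum in each of 2 libraries of different genotype, and the library is a block in the model. These p-values therefore rest on how far class differences disagree between the 2 libraries. That spread is estimated over all 12 sums together. With 1 library per genotype, the p-values do not measure variation among mice.

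The mevalonate steps were higher in the Enpp6 class for 7 of 7 genes, with a median log2 difference of 1.94. Mvd, the decarboxylase that makes isopentenyl pyrophosphate, stood at 14.4 and 15.3 TMM-scaled CPM in the Pdgfra class and at 123 and 58.6 in the Enpp6 class, DTRneg first. The classes did not overlap, and the Enpp6 values themselves lay far apart, on 65 and 11 UMIs. Its log2 difference was 2.83 ± 0.25 (SE, n = 2 libraries, edgeR adjusted p = 1.27e-15). Hmgcs1, the synthase that makes the precursor of mevalonate, stood at 104 and 90.5 in the Pdgfra class and at 560 and 612 in the Enpp6 class, a log2 difference of 2.57 ± 0.13 (edgeR adjusted p = 2.29e-26). Fdps, which makes farnesyl pyrophosphate, went from 53.9 and 43.2 to 249 and 144, a log2 difference of 2.06 ± 0.17 (edgeR adjusted p = 7.37e-17). Idi1, the isomerase after Mvd, went from 43.5 and 36.3 to 170 and 128 (log2 difference 1.94), and Acat2 from 34.9 and 32.7 to 132 and 122 (1.92). In each of these genes every Enpp6 sum exceeded every Pdgfra sum.

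The steps from squalene to cholesterol were higher in the Enpp6 class for 10 of 11 genes, with a median log2 difference of 1.69. Fdft1, which makes squalene, stood at 28.2 and 33.9 TMM-scaled CPM in the Pdgfra class and at 130 and 106 in the Enpp6 class, a log2 difference of 2.01 ± 0.21 (edgeR adjusted p = 1.29e-12). Hsd17b7, a sterol ketone reductase, stood at 22.4 and 20.2 against 86.8 and 69.2, a log2 difference of 1.96 ± 0.26 (edgeR adjusted p = 3.10e-09). Both were higher in each Enpp6 sum than in either Pdgfra sum. Tm7sf2, a sterol reductase, was the exception, with 7.52 and 8.07 in the Pdgfra class against 9.43 and 10.6 in the Enpp6 class and a log2 difference of 0.31 that was not called. Its Enpp6 values rest on 5 and 2 UMIs.

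The regulators and the fatty acid genes were less uniform. Insig1, which holds SREBP back, and Stard4, a sterol carrier, were called higher, with log2 differences of 1.29 and 1.72. Stard4 rests on 15 and 2 UMIs in the Enpp6 class, and its log2 ratio of unscaled CPM was 1.80 (95% interval 0.81 to 2.72) in DTRneg and 0.54 (-2.56 to 2.50) in DTRpos. Srebf1 (-0.43) and Srebf2 (0.29) were not called. Among the 8 fatty acid genes, 4 were higher: Elovl1, an elongase of very long chains, Scd2, Fasn and Elovl6. Elovl1 stood at 18 and 21.6 TMM-scaled CPM in the Pdgfra class and at 79.2 and 133 in the Enpp6 class, a log2 difference of 2.29 ± 0.25 (edgeR adjusted p = 7.87e-12). The remaining 4, Acly, Acaca, Scd1 and Elovl5, had log2 differences of -0.01, 0.02, -1.27 and -0.26 and were not called. The value for Scd1 rests on 1 and 2 UMIs in the Enpp6 sums.

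The Enpp6 class was small and mixed, and other markers moved with the difference. The summed level of 6 mature oligodendrocyte markers was 2161 and 3777 CPM in the Enpp6 class (1 of 6 at 0 in DTRneg) against 89.2 and 99.5 in the Pdgfra class, and that of 6 progenitor markers was 2365 and 2251 against 9713 and 10567. Choroid plexus markers summed to 4643 CPM in the DTRneg Enpp6 class and 20.7 in DTRpos. In this class, 1 DTRneg and 0 DTRpos cells gave more than 1% of their UMIs to pericyte, fibroblast or choroid plexus markers. With all such cells of every class left out, the count of genes called was again 23. With only cells that had 0 UMIs of the other 5 class markers (35 and 17 Enpp6 cells), 14 genes were called, all of them higher except Elovl5 (-2.35), and the median log2 difference was 0.73. Mvd (2.55), Hmgcs1 (1.88) and Elovl1 (2.13) were still called there, while Sqle (-0.00), Lss (0.07) and Fasn (0.11) were not.

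**Figure D2:**
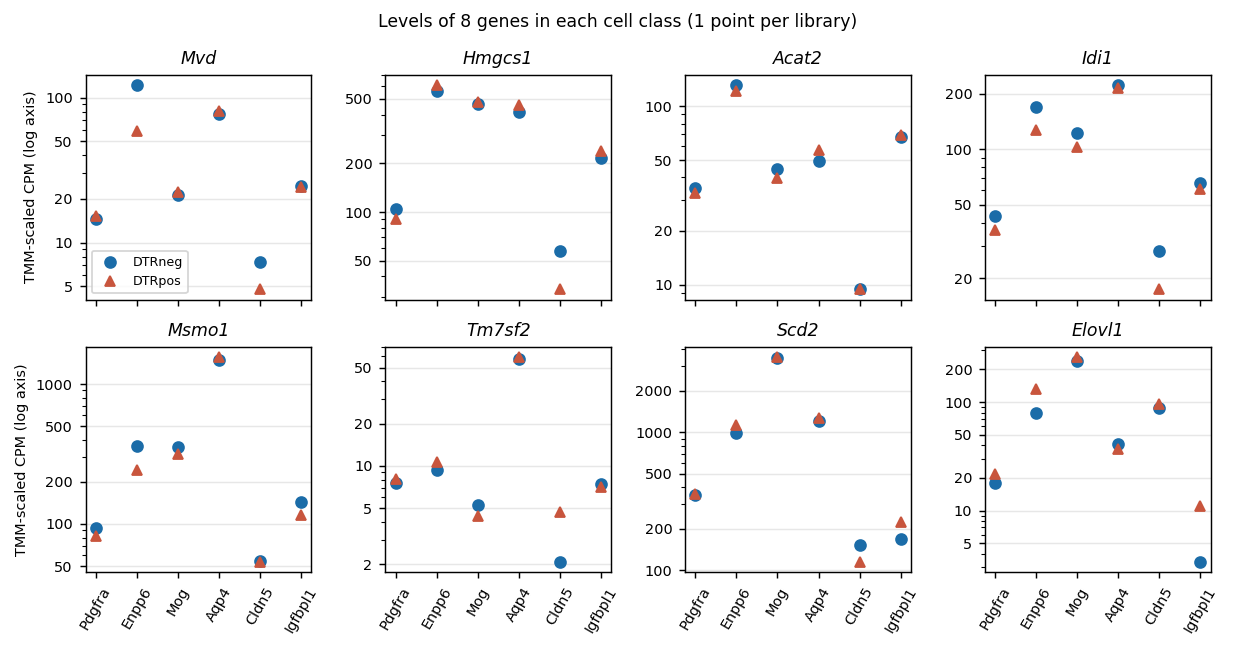
TMM-scaled CPM (log axis) of 8 genes in the 6 cell classes, 1 point per library (circles DTRneg, triangles DTRpos). Mvd, Hmgcs1 and Acat2 are higher in the Enpp6 than in the Pdgfra class, Msmo1 and Tm7sf2 are highest in the Aqp4 class, and Scd2 and Elovl1 are highest in the Mog class.

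Between differentiating and mature oligodendrocyte-like cells, 8 of 8 fatty acid genes were higher in the latter, while 3 of 7 mevalonate genes were lower and 4 were not called. Under TMM, RLE factors and library totals alike, this held for 5 of the 8 fatty acid genes and for the 3 mevalonate genes. The Mog class was higher than the Enpp6 class for 13 of 30 genes, lower for 5 and not called for 12. Of all genes tested, 22.8% were called higher, 12.5% lower and 35.3% in either direction. The median log2 difference was 0.11, below the median over all genes of 0.39. The 3 lower mevalonate genes were Mvd, Acat2 and Idi1. The direction of many genes here depended on scaling. With RLE factors 11 were higher and 8 lower, and with library totals 7 were higher and 15 lower. Under all 3 scalings, 7 were called higher (Scd1, Scd2, Acaca, Elovl1, Elovl5, Srebf1 and Ebp) and 5 lower (Mvd, Acat2, Idi1, Hsd17b7 and Nsdhl). With only cells that had 0 UMIs of the other class markers, the median log2 difference was 0.84, and Idi1 (0.17) and Nsdhl (-0.53) were no longer called.

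Scd1, the paralogue of Scd2 in the same gene cluster, stood at 1.89 and 10.6 TMM-scaled CPM in the Enpp6 class and at 137 and 123 in the Mog class. Its Enpp6 values rest on 1 and 2 UMIs, and its log2 ratio of unscaled CPM was 5.59 (95% interval 3.11 to 10.89) in DTRneg and 2.74 (0.89 to 5.79) in DTRpos. Whether reads that fit several desaturase genes affected the split between Scd1 and Scd2 was not tested. Scd2 stood at 985 and 1123 in the Enpp6 class and at 3436 and 3512 in the Mog class, a log2 difference of 1.73 ± 0.12 (edgeR adjusted p = 2.74e-21). Acaca, the carboxylase that commits acetyl-CoA to fatty acids, stood at 18.9 and 47.9 against 106 and 112. Its log2 difference was 2.003 ± 0.28 (edgeR adjusted p = 6.94e-09), on 10 and 9 UMIs in the Enpp6 class. Elovl5, an elongase of polyunsaturated chains, stood at 22.6 and 31.9 against 88.2 and 78.7 (log2 difference 1.76), Elovl1 at 79.2 and 133 against 241 and 261 (1.37), and Srebf1 at 11.3 and 16 against 52.3 and 52.1 (2.06, on 6 and 3 UMIs in the Enpp6 class). None of these ranges overlapped.

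Mvd stood at 123 and 58.6 TMM-scaled CPM in the Enpp6 class, on 65 and 11 UMIs, and at 21.3 and 22.3 in the Mog class. It was therefore lower in the Mog class (log2 difference -2.28 ± 0.22, edgeR adjusted p = 5.31e-14). Acat2, the thiolase at the start of the mevalonate steps, stood at 132 and 122 against 44.7 and 39.7, a log2 difference of -1.60 ± 0.19 (edgeR adjusted p = 1.05e-10). Hmgcs1 was 560 and 612 against 468 and 479, with a log2 difference of -0.29 that was not called (edgeR adjusted p = 0.0516). Mvd and Acat2 were therefore peaked in the Enpp6 class within the 3 oligodendroglial classes, in both libraries.

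Across the whole span from progenitor-like to mature oligodendrocyte-like cells, 29 of 30 genes were higher in the Mog class and 1, Tm7sf2, was lower. Calls were frequent here: 37.3% of all genes tested were called higher and 73.9% in either direction. The median log2 difference of the list was 1.49, beside 0.01 over all genes. Scd1 differed by 3.71 ± 0.15, Elovl1 by 3.66 ± 0.13 and Scd2 by 3.29 ± 0.11. Scd2 went from 352 and 358 TMM-scaled CPM to 3436 and 3512, and Elovl1 from 18 and 21.6 to 241 and 261. Ebp, a sterol isomerase, went from 35.7 and 35.3 to 182 and 182 (log2 difference 2.36), and Hmgcs1 from 104 and 90.5 to 468 and 479 (2.28). In all of these the 4 sums separated fully by class. Tm7sf2 stood at 7.52 and 8.07 in the Pdgfra class and at 5.27 and 4.39 in the Mog class, a log2 difference of -0.67 ± 0.23 (edgeR adjusted p = 0.00675). With library totals 22 genes were higher and 2 lower, and the log2 differences of Hsd17b7, Sqle, Mvd and Acat2 turned negative.

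The choice of scaling moved these values. TMM factors were 1.28 and 1.31 for the Pdgfra class and 0.717 and 0.753 for the Mog class. The median log2 difference of all genes between the Mog and Pdgfra classes was 0.01 with TMM, -0.24 with RLE and -0.80 with library totals, and the share of called genes that were higher was 50.5%, 39.4% and 19%. Between the Mog and Enpp6 classes these medians were 0.39, 0.12 and -0.23 and the shares 64.5%, 49.3% and 28.4%. Between the Enpp6 and Pdgfra classes they were -0.32, -0.29 and -0.49, with shares of 42.6%, 44.8% and 30.9%, and the list gave 23, 23 and 22 genes higher and 0 lower under each.

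**Figure D3:**
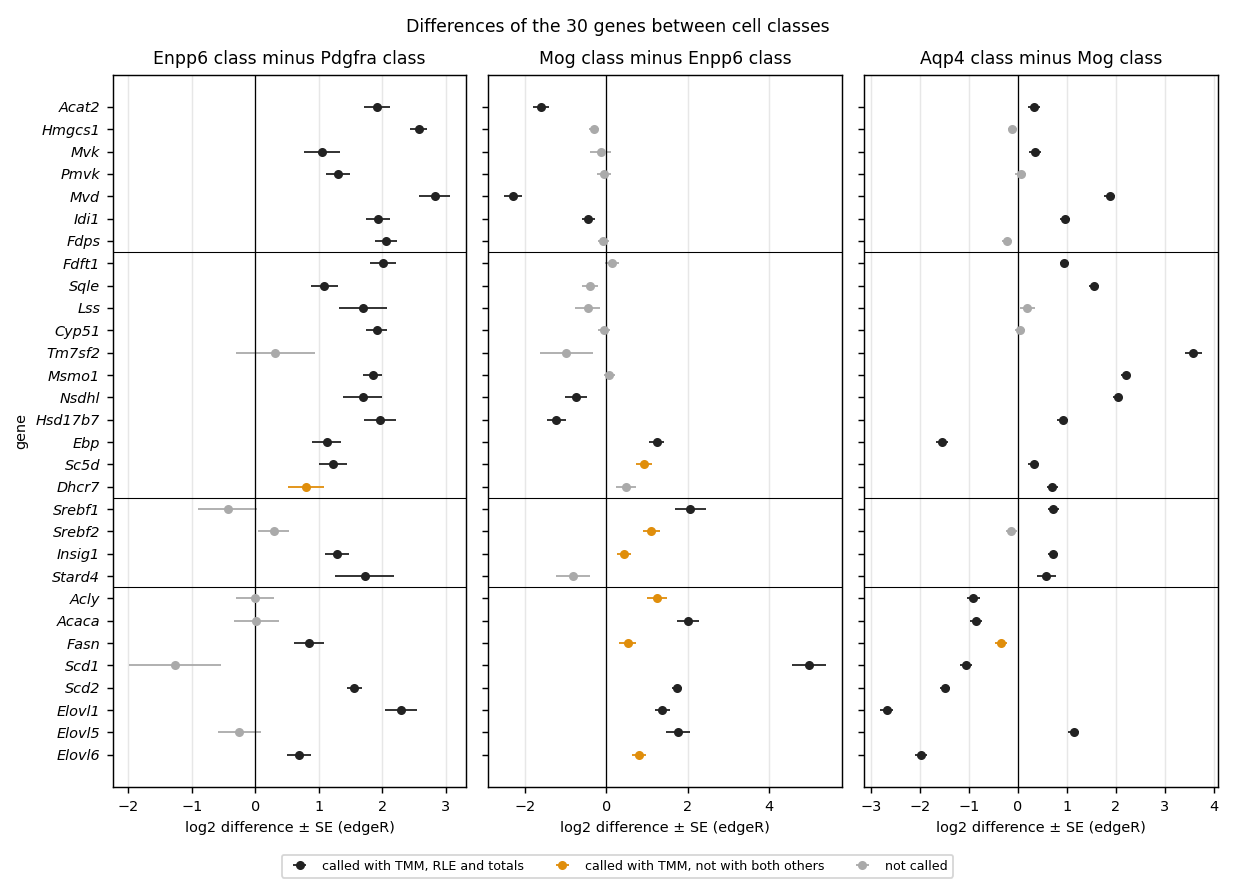
Log2 difference ± SE of each of the 30 genes in 3 class comparisons, with lines parting the role groups. Black points were called with TMM, RLE and library totals, orange points with TMM but not with both others, and grey points were not called. In the left panel 23 genes lie right of 0 and called, and in the middle panel the 8 fatty acid genes at the bottom do.

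Astrocyte-like cells exceeded mature oligodendrocyte-like cells in most sterol synthesis genes and were below them in most fatty acid genes. The Aqp4 class was higher than the Mog class for 16 of 30 genes, lower for 8 and not called for 6, where 32.8% of all genes were called higher, 36.4% lower and 69.2% in either direction. The squalene to cholesterol steps had 8 of 11 genes higher and 1 lower, the mevalonate steps 4 of 7 higher and 0 lower, and the fatty acid genes 1 of 8 higher (Elovl5) and 7 lower. The median log2 difference was 0.33, beside -0.08 over all genes. With RLE factors 19 were higher and 7 lower, with library totals 17 and 7, and the share of all called genes that were higher was 47.4% with TMM, 58.3% with RLE and 53.7% with totals. The all-gene median was 0.19 with RLE and 0.07 with totals.

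Msmo1 stood at 352 and 316 TMM-scaled CPM in the Mog class and at 1494 and 1562 in the Aqp4 class, a log2 difference of 2.20 ± 0.10 (edgeR adjusted p = 3.49e-31). Tm7sf2 stood at 5.27 and 4.39 against 57.6 and 59.4, a log2 difference of 3.57 ± 0.17 (edgeR adjusted p = 1.67e-29). Nsdhl, which acts with Msmo1 to remove sterol methyl groups, stood at 30.8 and 27.2 against 120 and 118 (log2 difference 2.03), and Sqle, the epoxidase after squalene, at 66.9 and 67.1 against 189 and 204 (1.55). Mvd stood at 21.3 and 22.3 against 77.7 and 81.4 (1.87). In these 5 genes both Aqp4 sums exceeded both Mog sums. Ebp went the other way among the sterol genes, with 182 and 182 in the Mog class and 59.7 and 65.1 in the Aqp4 class, a log2 difference of -1.55 ± 0.12 (edgeR adjusted p = 3.16e-19).

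Among the fatty acid genes, Elovl1 stood at 241 and 261 TMM-scaled CPM in the Mog class and at 41 and 37 in the Aqp4 class, a log2 difference of -2.68 ± 0.13 (edgeR adjusted p = 1.02e-28). Elovl6, which extends saturated chains, stood at 202 and 202 against 46.9 and 56.2, a log2 difference of -1.98 ± 0.12 (edgeR adjusted p = 1.05e-23). Scd2, Scd1, Acly and Acaca were lower by smaller amounts, with log2 differences of -1.48, -1.06, -0.91 and -0.85. Elovl5 was higher in the Aqp4 class, at 188 and 178 against 88.2 and 78.7, a log2 difference of 1.14. Fasn had a log2 difference of -0.35 that was called with TMM but not with RLE factors or library totals.

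Endothelial-like and neuroblast-like cells were below astrocyte-like cells for nearly the whole list. The Cldn5 class was lower than the Aqp4 class for 27 of 30 genes and higher for 3 (28.4% of all genes were called lower, 26% higher and 54.4% in either direction), with a median log2 difference of -2.92 beside -0.09 over all genes. Msmo1 stood at 54.3 and 53.7 TMM-scaled CPM in the Cldn5 class, a log2 difference of -4.84 ± 0.15 (edgeR adjusted p = 3.69e-40), and Sqle at 11.5 and 7.9, a log2 difference of -4.28 ± 0.24 (edgeR adjusted p = 5.19e-26). Tm7sf2, Scd1 and Elovl6 were also lower, with fitted log2 differences of -4.21, -4.05 and -4.01, but each rests on 1 to 4 UMIs per library in the Cldn5 class. For Tm7sf2 the log2 ratio of unscaled CPM was -4.62 (95% interval -7.68 to -2.74) in DTRneg and -3.46 (-5.76 to -1.88) in DTRpos. For Scd1 it was -4.80 (-7.86 to -2.93) and -3.06 (-4.96 to -1.67), and for Elovl6 -3.33 (-5.23 to -1.93) and -4.96 (-10.28 to -2.46), DTRneg first.

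The 3 genes higher in the Cldn5 class than in the Aqp4 class were Stard4, Elovl1 and Ebp. Stard4 stood at 65.8 and 63.2 TMM-scaled CPM against 20.5 and 19.2, a log2 difference of 1.70 ± 0.23 (edgeR adjusted p = 2.74e-09), and the 2 classes did not overlap. Elovl1 stood at 88.8 and 96.4 against 41 and 37 (log2 difference 1.24), and Ebp at 75.2 and 99.6 against 59.7 and 65.1 (0.46). Median depth in the Cldn5 class was 2014 and 1619 UMIs per cell, against 4434 and 3607 in the Aqp4 class, and 8 stress genes of tissue dissociation summed to 17790 and 16266 CPM against 1119 and 1309. Their part in these differences was not tested.

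The Igfbpl1 class was lower than the Aqp4 class for 28 of 30 genes and higher for 0 (31% of all genes were called lower, 26.7% higher and 57.7% in either direction), with a median log2 difference of -1.55 beside -0.05 over all genes. With library totals 23 were lower and 2, Acat2 and Acly, were higher, the all-gene median was 0.37, and the share of called genes that were higher went from 46.2% with TMM to 63.7%. Msmo1 stood at 144 and 116 TMM-scaled CPM in the Igfbpl1 class, a log2 difference of -3.55 ± 0.12 (edgeR adjusted p = 2.04e-37). Elovl5 stood at 18.9 and 12.1 (log2 difference -3.51), Srebf1 at 9.47 and 6.06 (-3.41) and Tm7sf2 at 7.44 and 7.07 (-3.003). Scd1 stood at 4.06 and 3.03 on 6 and 3 UMIs, a log2 ratio of unscaled CPM of -3.51 (95% interval -4.98 to -2.36) in DTRneg and -3.84 (-6.13 to -2.26) in DTRpos. Every Igfbpl1 sum of these genes lay below every Aqp4 sum. Hmgcs1 had the highest level of the list in this class, at 215 and 238 against 416 and 461 (log2 difference -0.96). It carried 13.1% and 13.5% of the list's UMIs there. The 2 genes not called were Acat2, at 67.7 and 68.7 against 49.5 and 56.6, and Acly, at 50.7 and 64.7 against 47.4 and 48.7. Cycling markers summed to 246 and 178 CPM in this class and to at most 43.4 CPM in any other.

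Cells within a class also differed in how much of their RNA came from these genes. With every cell drawn down to 2000 UMIs and cells below that depth dropped, the median share of UMIs in the 30 genes was 0.35% and 0.45% in the Enpp6 class, 0.45% and 0.5% in the Mog class and 0.5% and 0.5% in the Aqp4 class, DTRneg first. It was 0.15% in both libraries for the Pdgfra and Igfbpl1 classes and 0.1% for the Cldn5 class. The Enpp6 class had the widest spread, with the 5th and 95th percentiles at 0.05% and 1.55% in DTRneg and 0.01% and 1.24% in DTRpos, against 0.2% and 0.9% in the DTRneg Mog class. Thinning left out 240 and 233 of the Cldn5 cells, and at most 76 in any other class and library. Without thinning the medians were 0.37% and 0.43% in the Enpp6 class, 0.48% and 0.49% in the Mog class, and 0.48% and 0.52% in the Aqp4 class.

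**Figure D4:**
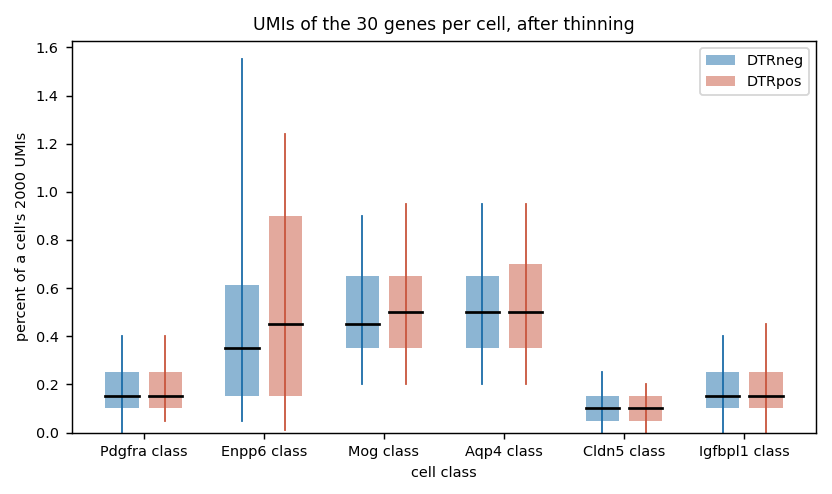
Percent of each cell's 2000 thinned UMIs that fall in the 30 genes, by class and library (blue DTRneg, red DTRpos). Black lines are medians, boxes span the quartiles and thin lines the 5th to 95th percentiles over cells; the Enpp6 class reaches 1.55%, and the Cldn5 class has a median of 0.1%.

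Part of the Enpp6 spread went with Mog. Enpp6-class cells with 0 Mog UMIs (40 and 17 cells) had 3317 and 3189 CPM in the 30 genes, and those with at least 1 Mog UMI (33 and 11 cells) had 5746 and 7475. Their median depths were 4229 and 4242 UMIs against 5792 and 6391. Hmgcs1 was 429 and 381 CPM in the cells without Mog and 762 and 1253 in those with it. Msmo1 was 232 and 39.4 against 529 and 627, and its value of 39.4 rests on 3 UMIs. In Mog-class cells with at least 1 Enpp6 UMI (1240 and 788 cells) the 30 genes summed to 5481 and 5782 CPM, and in those without (2456 and 1785 cells) to 4859 and 5035. Hmgcs1 was 396 and 438 CPM with Enpp6 and 285 and 294 without, at median depths of 9160 and 9906 UMIs against 7207 and 5784. Cells are not replicates and the groups differ in depth, so these values have no test.

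Smaller differences were seen among mature oligodendrocyte-like and astrocyte-like cells. Mog-class cells with at least 2 UMIs of Klk6, a protease of a mature oligodendrocyte subset, had 5438 and 5764 CPM in the list, and those with 0 Klk6 and at least 2 Opalin UMIs had 5077 and 5289. Median depths were 12246 and 13474 UMIs per cell against 7567 and 6263. Aqp4-class cells with at least 1 UMI of Agt, which encodes angiotensinogen, had 5230 and 5669 CPM, and those with 0 had 4643 and 5254, at median depths of 4656 and 3726 UMIs against 4072 and 3493. In each case the order was the same in both libraries, and the cells with the higher level were also the deeper ones; the part of depth was not tested.

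The other genes of lipid metabolism on a separate list of 34 moved in both directions. Of the 33 tested, 11 were higher and 7 lower in the Enpp6 than in the Pdgfra class, where 12% and 16.1% of all genes were, and these calls held under all 3 scalings. Elovl7, Ugt8a and Fa2h, which serve very long chains and the galactolipids of myelin, were higher, with log2 differences of 3.83, 2.52 and 2.09. Abcg1, a sterol exporter, and Apoe, the lipid carrier of astrocytes, were lower, with log2 differences of -2.46 and -2.34. In the Mog against the Enpp6 class 18 were higher and 6 lower, where 22.8% and 12.5% of all genes were, and 10 and 6 of these calls held under all 3 scalings. Mid1ip1, Abcg1, Scap, Apoe and Lbr were higher by 3.53, 3.27, 2.36, 2.27 and 2.25 on the log2 scale, and Fads2 was lower, with a log2 difference of -3.82. In the Aqp4 against the Mog class 18 were higher and 12 lower, where 32.8% and 36.4% of all genes were, and 18 and 11 held under all 3 scalings. Fads2, a desaturase of polyunsaturated chains, was higher there by 7.16 on the log2 scale, and Abcg1, Ugt8a, Elovl7, Gal3st1 and Fa2h were lower, with log2 differences of -7.74, -7.57, -6.95, -6.85 and -6.70.

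On unscaled CPM, the summed list differed between genotypes by at most 0.18 on the log2 scale in any class. The fatty acid genes alone differed by more in the Enpp6 and Igfbpl1 classes. With 1 library per genotype there is no replicate check and no test, and the intervals given are exact 95% binomial intervals that cover counting error only. Levels in the rest of this section are unscaled CPM unless TMM-scaled CPM is named. The log2 ratio of the summed list, DTRpos over DTRneg, was 0.05 (95% interval -0.00 to 0.09) in the Pdgfra class, 0.07 (0.06 to 0.08) in the Mog class and 0.14 (0.10 to 0.17) in the Aqp4 class. It was 0.18 (0.06 to 0.30) in the Enpp6 class, 0.00 (-0.15 to 0.15) in the Cldn5 class and 0.14 (0.05 to 0.23) in the Igfbpl1 class. In the Enpp6 class it was -0.04 without the 5 cells of each library with the most UMIs of the list and -0.20 with only cells that had 0 UMIs of the other class markers. In the Igfbpl1 class it was 0.03 after thinning, and in the Mog class 0.03 without Scd2. The order of the libraries also depended on scaling. On TMM-scaled CPM the list summed to 4260.5 in DTRneg and 4025 in DTRpos in the Enpp6 class. In the Mog class it summed to 7189 and 7166, and in the Cldn5 class to 1025 and 967. DTRpos stayed higher in the Pdgfra, Aqp4 and Igfbpl1 classes.

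By role, the 8 fatty acid genes summed to 1436 CPM in DTRneg and 2071 in DTRpos in the Enpp6 class, on 703 and 300 UMIs, a log2 ratio of 0.53 (95% interval 0.33 to 0.73). In the Igfbpl1 class they summed to 381 and 499 CPM, on 497 and 427 UMIs, a log2 ratio of 0.39 (0.20 to 0.58). In the other classes their ratio was 0.11 (Pdgfra), 0.10 (Mog), 0.11 (Aqp4) and -0.04 (Cldn5). The 7 mevalonate genes had ratios of 0.06 (-0.16 to 0.27) in the Enpp6 class and 0.03 (-0.13 to 0.19) in the Igfbpl1 class, and the 11 genes from squalene to cholesterol had -0.11 (-0.35 to 0.13) and 0.11 (-0.05 to 0.26). Over 11 other choices of cells or genes, made after seeing the data, the fatty acid ratio ranged from 0.33 (without the 5 richest cells) to 0.73 (without Scd2) in the Enpp6 class and from 0.31 to 0.46 in the Igfbpl1 class. TMM scaling was not among these choices. On TMM-scaled CPM the fatty acid genes summed to 1326 in DTRneg and 1597 in DTRpos in the Enpp6 class. In the Igfbpl1 class they summed to 336 and 431. The mevalonate genes of the Enpp6 class were at 1421 and 1235 on that scale. The difference between the role groups was not tested. In the Enpp6 class, on 73 and 28 cells, the 6 mature oligodendrocyte markers also differed, at 2161 CPM in DTRneg and 3777 in DTRpos. The part of this marker difference in the fatty acid ratio was not tested.

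No gene of the list passed a 1.5-fold ratio in the 3 classes where all 30 had at least 50 UMIs. The count was 0 of 30 in the Pdgfra class, where 6.16% of all genes with 50 UMIs passed, 0 of 30 in the Mog class (5.31% of all) and 0 of 30 in the Aqp4 class (6.92% of all). The median log2 ratio of the list was 0.07, 0.08 and 0.13 in these classes, beside 0.04, 0.07 and 0.04 over all such genes. In the Aqp4 class 24 of 30 ratios were above 0, where 56.5% of all genes were. In the Mog class 19 of 30 were, where 63.7% of all genes were.

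Fdps had the lowest ratio of the list in the Mog and Aqp4 classes. It stood at 166 CPM in DTRneg and 118 in DTRpos in the Mog class, a log2 ratio of -0.49 (95% interval -0.56 to -0.43), and 3.27% of all genes in the class had a lower one. In the Aqp4 class it stood at 156 and 117, a log2 ratio of -0.41 (-0.62 to -0.20), and in the Pdgfra class at 68.7 and 56.1, a log2 ratio of -0.29 (-0.56 to -0.03). In the Enpp6, Igfbpl1 and Cldn5 classes the ratios were -0.53, -0.31 and -0.29, each with an interval that included 0. DTRpos was thus below DTRneg for Fdps in 6 of 6 classes. All classes come from the same 2 libraries, and of the 1889 genes with at least 50 UMIs in every class 11.8% were below 0 in each. Of the list it was 1 of 8 such genes. Idi1, the step before Fdps, had ratios below 0 in 5 of 5 classes with enough UMIs, with an interval that excluded 0 in the Mog class alone (-0.18, -0.27 to -0.10). Of the 1933 genes with enough UMIs in exactly 5 classes, 8.85% were below 0 in each, and of the list 1 of 12 such genes.

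Ratios above 0 in each class with enough UMIs were found for Pmvk, a kinase of the mevalonate steps (6 classes), for Srebf2, Sqle and Elovl6 (5 classes) and for Mvk and Acaca (4 classes). Of all genes with enough UMIs in 6, 5 and 4 classes, 14.7%, 15.2% and 17.5% were above 0 in each. Of the list it was 1 of 8, 3 of 12 and 2 of 6 such genes. Scd2 was above 0 in 5 of 6 classes and had an interval above 0 in 4 of them. Its ratios there were 0.45 (95% interval 0.21 to 0.68) in the Enpp6 class and 0.44 (0.17 to 0.70) in the Igfbpl1 class. In the Aqp4 class the Scd2 ratio was 0.14 (0.06 to 0.22), and in the Mog class 0.10 (0.09 to 0.12). The median over all genes in the Mog class was 0.07, with 63.7% of them above 0. Srebf2 stood at 82.3 and 110 CPM in the Aqp4 class, a log2 ratio of 0.42 (95% interval 0.17 to 0.68), at 54.9 and 71 in the Pdgfra class (0.37, 0.11 to 0.64) and at 87.3 and 99.8 in the Mog class (0.19, 0.11 to 0.27). Fasn, the fatty acid synthase, stood at 47.4 and 67.6 CPM in the Pdgfra class, a log2 ratio of 0.51 (0.23 to 0.80), and at 74.7 and 94 in the Mog class (0.33, 0.25 to 0.41). Pmvk stood at 60.4 and 81.5 CPM in the Pdgfra class (0.43, 0.18 to 0.68). In the Aqp4 class Fdft1 stood at 194 and 245 CPM, a log2 ratio of 0.34 (0.17 to 0.50), and Cyp51, a sterol demethylase, at 176 and 222 (0.34, 0.16 to 0.51). The ratios with values given here all stayed under 1.5-fold. These genes were singled out after their values were seen.

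**Figure D5:**
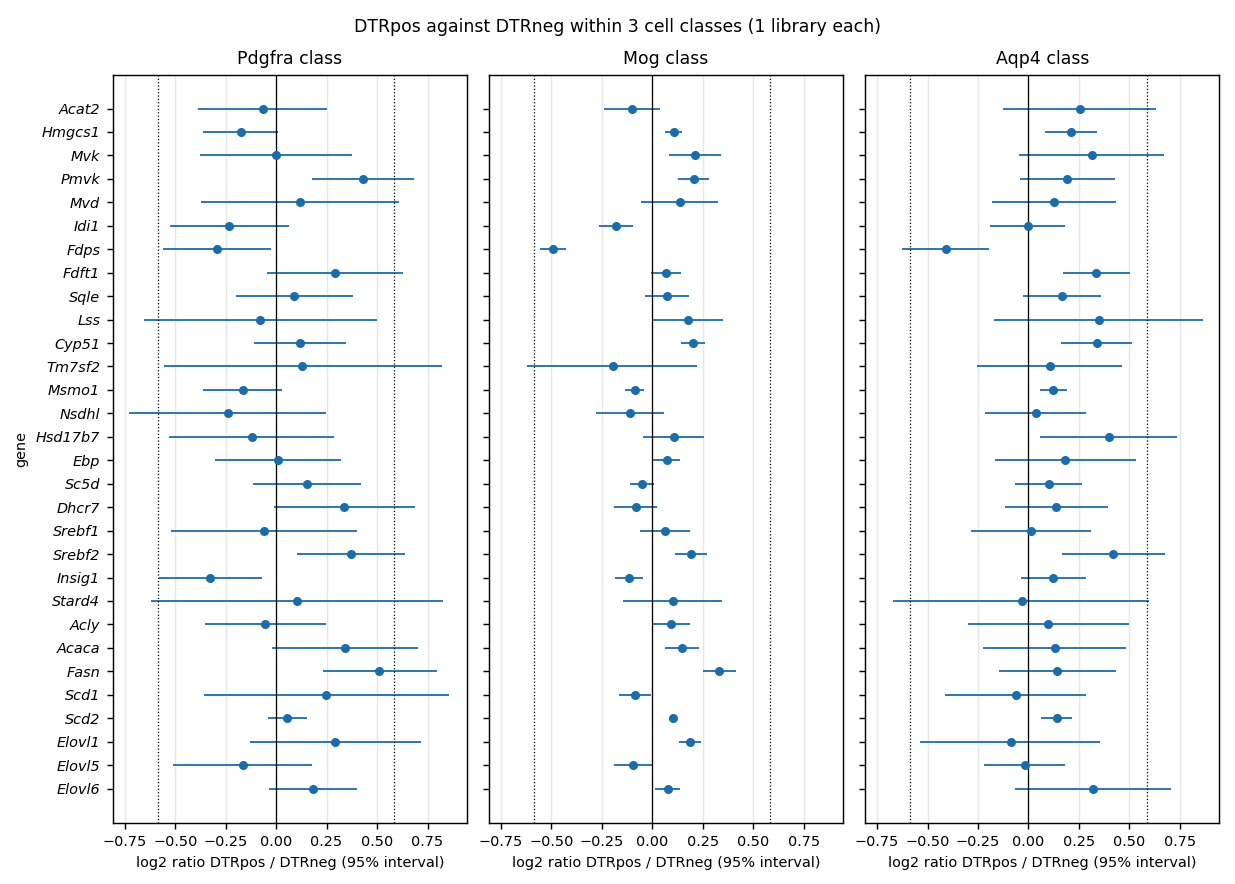
Log2 ratio of CPM, DTRpos over DTRneg, of the 30 genes in the Pdgfra, Mog and Aqp4 classes, with exact 95% intervals for counting error and 1 library per genotype. Dotted lines mark 1.5-fold; 0 of 30 points lie past them in each class, and Fdps is the lowest point in the Mog and Aqp4 classes.

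In the 3 smaller or shallower classes a few genes passed 1.5-fold, on low counts. In the Enpp6 class 18 genes had at least 50 UMIs and 3 passed, where 20.3% of all such genes did: Elovl1 at 85.8 and 173 CPM (log2 ratio 1.01, 95% interval 0.23 to 1.76), Elovl6 at 114 and 173 (0.59, -0.15 to 1.30) and Mvd at 133 and 76 (-0.81, -1.88 to 0.13). In the Cldn5 class 1 of 14 passed, where 10.2% of all did, Hmgcs1 at 51.7 and 31.6 CPM (-0.71, -1.51 to 0.04). In the Igfbpl1 class 2 of 22 passed, where 9.62% of all did: Fasn at 29.9 and 53.8 CPM (0.85, 0.20 to 1.502) and Sc5d, a sterol desaturase, at 39.1 and 64.3 (0.72, 0.14 to 1.30). After thinning the ratio of Sc5d was 0.13. Choroid plexus markers summed to 4643 CPM in DTRneg and 20.7 in DTRpos in the Enpp6 class, 1664 and 34.7 in the Cldn5 class, and 1167 and 28.1 in the Igfbpl1 class. Cells carrying over 1% pericyte, fibroblast or choroid plexus UMIs were few. DTRneg first, they numbered 1 and 0 in the Enpp6 class, 2 and 1 in the Cldn5 class, and 2 and 0 in the Igfbpl1 class. Without them, the ratio was 0.99 for Elovl1, -0.82 for Mvd, 0.83 for Fasn, 0.70 for Sc5d and -0.72 for Hmgcs1. Elovl6, at 0.57, then fell short of 1.5-fold, which left 2 genes past it in the Enpp6 class, and Pmvk, at 0.62, passed it in the Cldn5 class.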

How the data were processed

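Single-cell RNA was measured in 1 DTRneg and 1 DTRpos hippocampal library. The deposited values are raw UMI counts per gene and cell, made with Cell Ranger 6.1.0 per the file headers; build mm10 and Seurat are named in the submitters' processing notes. The labels name a 3' v2 kit. Meningeal libraries were not used here. Feature IDs sharing a symbol were summed. Cells needed at least 500 genes, under 15% mitochondrial UMIs and no doublet call by Scrublet (Scanpy 1.11.5; 242 DTRneg and 158 DTRpos cells removed, 3.41% and 2.70%).

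Counts were summed per class and library into 12 sums and tested with edgeR 4.0.16 (R 4.3.3): quasi-likelihood test, TMM, filterByExpr, class plus library as a block, Benjamini-Hochberg adjustment over 13738 genes. The library is the pairing, since both classes of a contrast come from the same pooled cells. DESeq2 1.42.0 was an alternative. Genotypes were compared as ratios of CPM with exact binomial 95% intervals (SciPy 1.17.1), for genes with at least 50 UMIs over both libraries. Where a class held few UMIs of a gene, the ratio of CPM within each library is given with the same interval.

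The 30 genes, the lists and the tests were chosen with earlier results of these data known. Values are given for the genes with the largest called differences (up to 8 each in Enpp6 minus Pdgfra, Mog minus Enpp6 and Aqp4 minus Mog, up to 5 in the others) and for those past 1.5-fold between genotypes; others were named after their values were seen. Sums were also simulated for the Enpp6 minus Pdgfra contrast (11204 genes). Called were 41 of 55 genes changed 4-fold, 18 of 61 changed 2-fold, 4 of 49 changed 1.5-fold and 2 of 11039 unchanged genes. All simulated sums came from 1 pooled profile with 1 spread for all genes. They held no class or library differences beyond the set changes. The measured classes differed in many genes, so these rates may not hold for them. Some results for genes of the separate list are not reported here.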

Additional observations from a re-analysis of the deposited data

Results flagged for a closer look

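Msmo1, the sterol methyl oxidase that leads the list in the Aqp4 class, went in opposite directions between genotypes in 2 classes. In the Mog class it stood at 252 CPM in DTRneg and 237 in DTRpos, a log2 ratio of -0.088 (95% interval -0.14 to -0.04). In the Aqp4 class it stood at 1200.2 and 1308, a log2 ratio of 0.12 (0.05 to 0.19). Both intervals cover counting error only, there is 1 library per genotype, and the difference between the classes was not tested.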

How the results depend on the processing

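Counts of called genes stayed within 1.5 times their reported value in 82 of 84 repeats. The exceptions were 14 against 23 (Enpp6 minus Pdgfra, other class markers at 0) and 11 against 18 (Mog minus Enpp6, cells thinned to 2000 UMIs). These counts join both directions, so they cannot show a change of direction. For Mog minus Enpp6, 13 genes were higher and 5 lower with TMM, but 7 higher and 15 lower with library totals. Without the library block, that is, with the pairing ignored, the counts were 22, 14, 30, 22, 29 and 28 for Enpp6 minus Pdgfra, Mog minus Enpp6, Mog minus Pdgfra, Aqp4 minus Mog, Cldn5 minus Aqp4 and Igfbpl1 minus Aqp4. The alternatives with library totals, with RLE medians and without cells rich in pericyte, fibroblast or choroid plexus UMIs were chosen after seeing the data.

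The median log2 difference of Mog minus Enpp6 (0.11) changed sign with library totals (-0.55), with RLE factors (-0.17), under 5% mitochondrial UMIs (-0.14) and without cells rich in pericyte, fibroblast or choroid UMIs (-0.055), and was 0.84 with the other markers at 0. For Enpp6 minus Pdgfra it was 0.73 with the other markers at 0. For Mog minus Pdgfra (1.49) it was 1.55 at 1 UMI of the top marker, 1.45 at 3 UMIs, 1.28 with the other markers at 0, 1.40 with doublets kept, 1.22 under 5% mitochondrial UMIs, 1.36 after thinning, 1.40 without cells rich in the other markers, 0.68 with library totals and 1.25 with RLE factors. For Aqp4 minus Mog (0.33) it was 0.65 under 5% mitochondrial UMIs, 0.49 with library totals and 0.61 with RLE factors. For Cldn5 minus Aqp4 it was -2.56 with doublets kept. For Igfbpl1 minus Aqp4 it was -1.501 at 3 UMIs, -1.49 with doublets kept and -1.07 with library totals. In 1 library alone, with no test, the medians spanned 1.21 to 1.46, 0.018 to 0.34, 1.46 to 1.51, 0.20 to 0.41, -3.05 to -2.75 and -1.64 to -1.57 in the order of contrasts above.

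The summed genotype ratio of the Enpp6 class (0.18) was -0.20 with the other markers at 0 and -0.040 without the 5 richest cells; that of the Mog class was 0.046 with the other markers at 0 and 0.032 without Scd2, of the Cldn5 class -0.16 with doublets kept, and of the Igfbpl1 class 0.025 after thinning. Median ratios were -0.62, -0.29 and 0.39 in the Enpp6 class (other markers at 0, thinned, at least 200 UMIs), 0.047, 0.10 and 0.0015 in the Mog class (other markers at 0, thinned, centred on all genes), 0.092 in the Aqp4 class (centred), and -0.35, -0.16 and -0.33 in the Cldn5 class (doublets kept, thinned, at least 200 UMIs). Counts past the fold were 1 in the Pdgfra class (1 UMI of the top marker) and 2 in the Aqp4 class (thinned). In the Enpp6 class they were 1, 0 and 1 (thinned, at least 200 UMIs, 2-fold). In the Cldn5 class they were 2, 3, 3, 2, 5, 0 and 0 (3 UMIs of the top marker, doublets kept, under 5% mitochondrial UMIs, without cells rich in the other markers, at least 20 UMIs, at least 200 UMIs, 2-fold). In the Igfbpl1 class they were 1, 4, 5, 0 and 0 (doublets kept, thinned, at least 20 UMIs, at least 200 UMIs, 2-fold). The summed mevalonate ratio of the Aqp4 class (0.079) was -0.027 after thinning and -0.00033 without Hmgcs1. The causes were not tested.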
